A study of Solanum lycopersicum with 3 samples.

Results

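Transcript signals in RNA taken from a high-salt supernatant of tomato fruit (Ex2) were set against those in RNA from a direct phenol extract of the same tissue (Ex1). The comparison took every probe set of the array that was not a control, which was 10038 of 10209, and 171 controls were left out. Each difference is log2(intensity + 1) in Ex2 minus the same in Ex1, so a value of 1 is a 2-fold higher signal in Ex2. A name of exactly 1 gene was given for 909 of the probe sets, which stand for 803 genes, and the other 9129 are unnamed here. A gene with more than 1 probe set is represented by its brightest, judged by the mean over all 3 arrays of the series.

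The tissue was pericarp, the fruit wall, of the tomato cultivar Ailsa Craig (Solanum lycopersicum), grown under glass, and 10 to 12 g was used for a preparation. For Ex2 the tissue was taken up in 2 ml per g of a Tris buffer at pH 8.5 with 0.2 M sucrose, 30 mM magnesium chloride and 0.6 M potassium chloride, with polyvinylpolypyrrolidone and beta-mercaptoethanol added. Debris was spun down at 10000 x g for 15 min, and only then did the supernatant meet detergent (SDS), phenol and chloroform. For Ex1 the tissue went into 1 ml per g of a buffer that already held aminosalicylic acid, naphthalenedisulfonic acid and phenol, and was shaken with phenol and chloroform with no spin before. Both preparations were then precipitated with isopropanol, lithium chloride and ethanol in the same steps. The ripening stage of the fruit, and whether both preparations came from the same fruit, were not stated in the labels. Going by the study's title, the question was how far the recovery of messages for secreted and endomembrane proteins depends on the extraction. The third array, of RNA from the debris, served here only in ordering probe sets by brightness. There was 1 array for Ex2 and 1 for Ex1, so no difference has a replicate check, an error between samples or a test.

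Proteins that leave the cell or stay in its membranes carry a hydrophobic stretch that is recognised as it emerges from the ribosome. The ribosome is then docked, with its message, on the endoplasmic reticulum, and many such messages are found on rough membranes. Messages of proteins that work in the cytosol or the nucleus, and of most proteins imported into plastids and mitochondria, are read on free ribosomes. In ripening tomato fruit the secretory route delivers the enzymes that take the cell wall apart and many proteins active against fungi, while ethylene, a gaseous hormone, is sensed by receptors in the endoplasmic reticulum membrane.

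The deposited values are linear probe set intensities whose distributions were near equal, with a median of 177 on the Ex2 array and 179 on the Ex1 array. Other signals on the arrays differed. The 21 probe sets of the hybridisation spikes, bacterial RNAs added to the labelled sample, had a median of 1164 on Ex2 and 509 on Ex1, 2.32-fold apart. The probe set of 25S ribosomal RNA read 367 on Ex2 and 1809 on Ex1. The ratio of the 3′ to the 5′ probe set, which climbs as RNA is broken, was 1.71 on Ex2 and 1.20 on Ex1 for actin, 3.27 on Ex2 and 2.62 on Ex1 for the elongation factor ef1a, and 1.45 on Ex2 and 1.34 on Ex1 for glyceraldehyde-3-phosphate dehydrogenase. The part of these array-wide differences in the results below was not tested. In a bulk sample fewer cells of a type and less RNA per cell cannot be told apart.

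Most signals lay close together on both arrays, and the large differences lay mainly on the Ex2 side. Small differences leaned the other way, with 3521 probe sets above 0 and 5167 below. Of the 10038 probe sets, 8155 (81.2%) were less than 2-fold apart, 1209 (12.0%) had a 2-fold or greater excess in Ex2 and 674 (6.71%) a 2-fold or greater deficit. Below, higher and lower in a count mean by 2-fold or more unless another fold is given. The direction of the imbalance changed with size. At 1.5-fold there were 1540 probe sets higher in Ex2 and 2186 lower. At 4-fold there were 603 probe sets higher in Ex2 and 4 lower, and at 8-fold 44 higher and 0 lower. The largest difference was 12.6-fold upward, and the largest downward was 6.29-fold. The middle of the distribution sat slightly below 0, with a median difference of -0.03, a 25th percentile of -0.51 and a 75th of 0.18. The tail on the Ex2 side was long, with a 95th percentile of 2.13, while the 5th percentile was -1.07. In the plot of intensities many probe sets on the Ex2 side lie well above the diagonal, and whether they form a separate group was not tested. Exactly the same value on both arrays was listed for 1350 probe sets (13.4%), so a difference of 0 can be a tie in the deposited table.

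**Figure D1:**
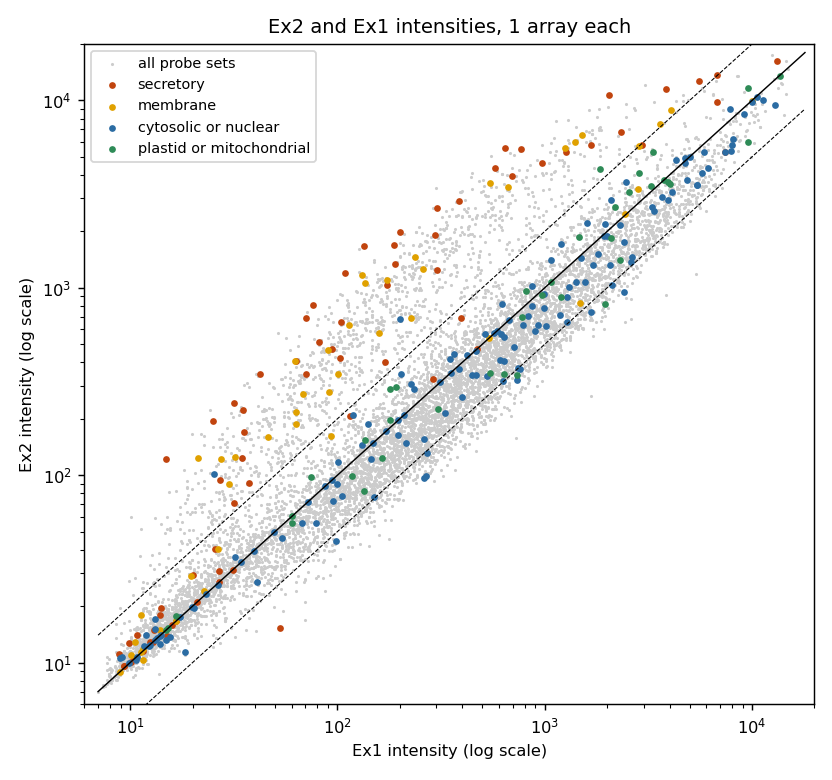
Intensity on the Ex2 array (vertical, log scale) against intensity on the Ex1 array (horizontal, log scale) for 10038 probe sets, 1 array each. Grey points are all probe sets, coloured points are listed genes by protein route, the solid line marks equal values and the dashed lines 2-fold. By log2(intensity + 1), 1209 probe sets are 2-fold or more higher in Ex2 and 674 lower. Secretory and membrane genes make up most of the coloured points above the upper dashed line.

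The constant by which the arrays are scaled decides how many probe sets count as higher or lower. On the deposited scale the split was 1209 higher to 674 lower. Scaling on the genes of the ribosomal proteins RPL3 and RPL8 added 0.55 to every difference and gave 1729 higher and 37 lower. Scaling on the spikes took the differences down by adding -1.22, and gave 449 higher and 7661 lower. Such a constant moves all genes together, so the distance of a gene from the median of all probe sets stays. Directions below are on the deposited scale. A list median between -0.55 and 0 turns positive with RPL3 and RPL8 scaling, and a median above 0 that is smaller than the spike shift turns negative with spike scaling; this holds for every list below, also where it is not repeated.

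The dimmest probe sets contributed little in either direction, but dim ones as a whole did contribute. When probe sets were ordered by mean brightness over the 3 arrays and divided into 10 deciles, the share counted as higher in Ex2 was 0.199% in the dimmest decile, 17.5% in the fourth and 11.0% in the brightest. Exact ties made up 49.7% of the dimmest decile and 2.69% of the brightest. The median difference was 0 in the dimmest 3 deciles and -0.34 in the brightest, so bright messages were on the whole slightly lower in Ex2. Among the 5019 probe sets at or above the median brightness, called bright below, 730 (14.5%) were higher in Ex2 and 514 (10.2%) lower.

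**Figure D2:**
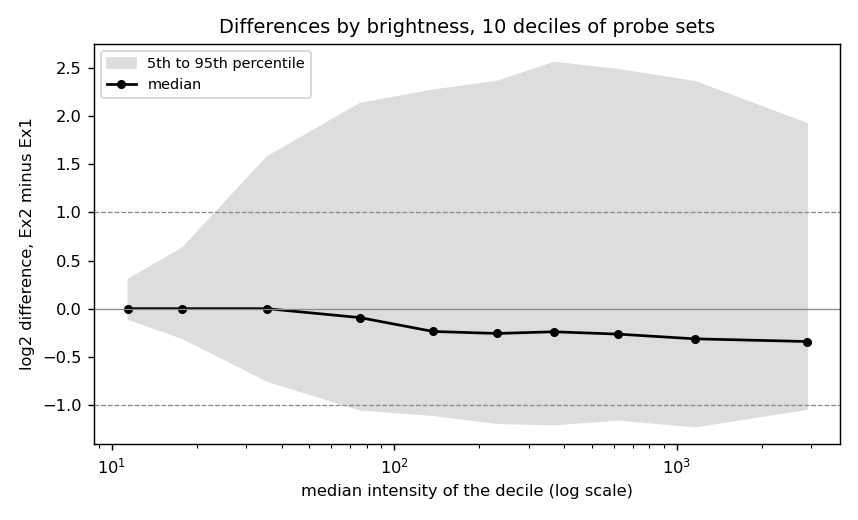
Log2 difference Ex2 minus Ex1 (vertical) in 10 deciles of probe sets by mean brightness, placed at the median intensity of each decile (horizontal, log scale). The line with points is the median and the grey band runs from the 5th to the 95th percentile of probe sets; the upper edge passes 2 from the fourth decile to the ninth, while the lower edge reaches -1.22 at its lowest.

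The 803 named genes leaned further to the Ex2 side than probe sets at large. Of them 130 (16.2%) were higher in Ex2 and 27 (3.36%) lower, with a median difference of 0.00. At 4-fold 73 named genes were higher and 0 lower. Among the 461 bright named genes 80 (17.4%) were higher and 21 (4.56%) lower. Named genes are a small and uneven sample of the array, so their shares and those of all probe sets are both given.

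Genes were then grouped by where their protein goes, from 22 lists of tomato genes gathered into 4 routes, which together hold 300 of the named genes. The gene TPx1 is on a secretory and a cytosolic list and counts in both routes. The routes came apart on these arrays, but lists and routes were chosen with earlier results of these data known. Their shares describe these lists and are no independent check. Of 72 genes of secreted, cell wall and vacuolar proteins, 41 (56.9%) were higher in Ex2 and 1 was lower, and their median difference was 1.402. Of 46 genes of membrane proteins, 27 (58.7%) were higher and 0 lower, at a median of 1.58. Of 145 genes of cytosolic and nuclear proteins, 2 (1.38%) were higher and 9 (6.21%) lower, with a median of -0.12. Of 38 genes of plastid and mitochondrial proteins, 1 (2.63%) was higher and 2 (5.26%) lower, with a median of 0.00. The 503 named genes on no list fell between, with 59 (11.7%) higher and 15 (2.98%) lower. The secretory and membrane medians stayed above 0 with spike scaling, while the cytosolic median turned positive with RPL3 and RPL8 scaling and the plastid and mitochondrial median followed whichever constant was added.

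A gene's rank among all probe sets of its array does not move with a scaling constant. The median secretory gene stood at the 64.8th percentile of brightness on Ex2 and at the 35.3rd on Ex1, with median intensities of 375.0 on Ex2 and 73.4 on Ex1. The median membrane gene stood at the 64.8th percentile on Ex2 and the 38.7th on Ex1. For cytosolic and nuclear genes the percentiles were 66.7 on Ex2 and 71.7 on Ex1, so the order was turned. Many secretory and membrane genes that sat in the upper part of the Ex2 array thus sat below the middle of the Ex1 array. Within a route the spread was wide. The middle range of the secretory genes (25th to 75th percentile) ran from 0.18 to 2.65, and 10 of the 72 were exact ties, most of them dim on both arrays.

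**Figure D3:**
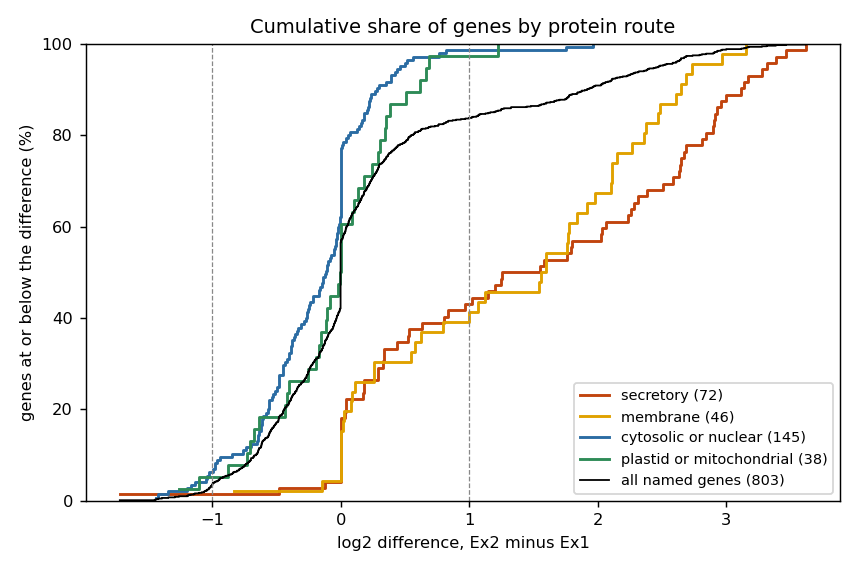
Cumulative share of genes (vertical, %) at or below each log2 difference Ex2 minus Ex1 (horizontal) for 72 secretory, 46 membrane, 145 cytosolic or nuclear, 38 plastid or mitochondrial and all 803 named genes. Dashed lines mark 2-fold; at a difference of 1 the secretory and membrane curves are at about 40%, the all-gene curve is above 80% and the other curves are near 100%.

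Genes of cell wall enzymes and wall proteins were the largest group of the secretory route. Of 43, 23 were higher in Ex2 and 0 lower, and the median was 1.20, a value that turned slightly negative with spike scaling. Of the 7 beta-galactosidases, which trim galactan side chains of pectin, 5 were higher in Ex2. TBG4, the member linked to fruit softening, read 2666 in Ex2 and 302 in Ex1 (8.81-fold). TBG3 read 5554 in Ex2 and 640 in Ex1 (8.67-fold), TBG1 1903 in Ex2 and 295 in Ex1, TBG2 1204 in Ex2 and 108 in Ex1, and TBG5 1994 in Ex2 and 200 in Ex1. TBG6 and TBG7, both dim, lay within 2-fold, at 206 in Ex2 and 115 in Ex1 for TBG6 and 19.5 in Ex2 and 14.1 in Ex1 for TBG7.

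Pectin enzymes included the largest named difference and also genes that differed far less. GP1, the noncatalytic beta subunit that binds polygalacturonase in the wall, read 1661 in Ex2 and 134 in Ex1, 12.3-fold apart. That placed it at the 89.1st percentile of brightness on Ex2, against the 44.9th on Ex1. PG2, the fruit polygalacturonase itself and the brightest gene of the list, read 16220 in Ex2 and 13236 in Ex1, a difference of 0.29 that turned with spike scaling. PG2 stood above the 99th percentile of brightness on both arrays. Among pectin methylesterases PMEU1 read 693 in Ex2 and 70.7 in Ex1 (9.68-fold), PME2.1 4374 in Ex2 and 574 in Ex1 (7.60-fold), and PE1 12684 in Ex2 and 5531 in Ex1 (2.29-fold), which turned just below 0 with spike scaling.

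Endoglucanases, named cellulases, included both large and small differences. Cel1 read 805 in Ex2 and 76.2 in Ex1, Cel3 2913 in Ex2 and 386 in Ex1, and Cel2, the ripe fruit form, 5291 in Ex2 and 1267 in Ex1. CEL8, dim in Ex1 at 94.2, read 472 in Ex2. The dim cel5 and cel7 lay within 2-fold, and cel7 was the lowest of the list at 13.8 in Ex2 and 15.1 in Ex1. Expansins, which loosen the wall without cutting it, included EXP1, the ripening member, at 6811 in Ex2 and 2321 in Ex1 (1.55), and EXP5 at 420.0 in Ex2 and 103 in Ex1 (2.02). The other expansins on the list (EXP2, exp9, exp11, exp18 and EXPA8) were dim on both arrays and differed by 0.18 or less. The mannanase Man4 read 11487 in Ex2 and 3835 in Ex1, the xylosidase LOC543515 (XYL2) 4620 in Ex2 and 967 in Ex1, and the wall invertase lin5, which splits sucrose outside the cell, 1341 in Ex2 and 190 in Ex1. XYL1, also bright, was within 2-fold at 325 in Ex2 and 288 in Ex1.

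Secreted defence and stress proteins behaved like the wall enzymes. Of 29 genes, 18 were higher in Ex2 and 1 lower, and the median was 1.802. LOC543878 (older name PR5), of the thaumatin-like family, read 1688 in Ex2 and 186 in Ex1 (9.01-fold). Chitinases, which cut the fungal wall, read 10687 in Ex2 and 2045 in Ex1 for CHI9, 1039 in Ex2 and 173 in Ex1 for CHI3, and 514 in Ex2 and 81.3 in Ex1 for CHI17. The glucanase GluB read 5512 in Ex2 and 768 in Ex1. These bright chitinase and glucanase genes were more than 5-fold apart, as was PR-P2 at 3940 in Ex2 and 692 in Ex1. The brightness filter uses a mean that includes Ex2, so it favours such genes. The dim chitinase CHI14 read 90.5 in Ex2 and 37.5 in Ex1 (2.38-fold).

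Subtilisin-like proteases of the list were dim in Ex1 and well up in Ex2. SBT1 read 345 in Ex2 and 42.2 in Ex1, sbt3 243 in Ex2 and 31.8 in Ex1, P69B 122 in Ex2 and 14.9 in Ex1, and SBT2 169 in Ex2 and 35.2 in Ex1. P69A and sbt4a, near the floor, lay within 2-fold. Of the lipid transfer proteins of the outer cell layer, TSW12 read 1240 in Ex2 and 302 in Ex1 and ltpg1 5770 in Ex2 and 1670 in Ex1. LE16 was within 2-fold at 688 in Ex2 and 394 in Ex1, a difference of 0.80 that turned with spike scaling. NP24-I, an osmotin-like protein of ripe fruit and the brightest of the list, read 13738 in Ex2 and 6749 in Ex1, a difference of 1.03 that turned to -0.19 with spike scaling. The lowest 2 of the list were TSI-1, at 15.3 in Ex2 and 52.7 in Ex1, and TPx1, at 5320 in Ex2 and 7432 in Ex1. Both are doubtful members, since TSI-1 belongs to an intracellular family and the older name of TPx1 is that of a thioredoxin peroxidase, an enzyme of the cell interior.

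Genes of transporters, channels and pumps, which carry ions, sugars, amino acids and water through membranes, lay mostly on the Ex2 side. Of 27, 16 were higher and 0 lower, at a median of 1.76. The proton pumps of the plasma membrane that energise uptake read 1065 in Ex2 and 135 in Ex1 for LHA1 (7.81-fold) and 5548 in Ex2 and 1251 in Ex1 for LHA2 (4.43-fold). The phosphate transporter PT1 read 3617 in Ex2 and 542 in Ex1, the metal transporter NRAMP3 6499 in Ex2 and 1506 in Ex1, and the proline transporter ProT1 1254 in Ex2 and 259 in Ex1. The cation exchanger NHX2 read 1095 in Ex2 and 174 in Ex1. Sugar carriers were dimmer and varied, with the hexose transporter HT3 at 407 in Ex2 and 62.3 in Ex1, the sucrose transporter SUT2 at 345 in Ex2 and 101 in Ex1, and the hexose transporter HT1 within 2-fold at 40.2 in Ex2 and 26.6 in Ex1. MCA1 read 2474 in Ex2 and 2440 in Ex1, and cat1, the brightest, was a tie at 9952. Both symbols are shared with soluble enzymes, a metacaspase and catalase. The potassium channel LKT1 was the lowest, at 10.4 in Ex2 and 11.6 in Ex1, near the floor.

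The ethylene pathway crosses from membrane to nucleus, and its genes were put on 2 lists, 1 for each side. All 7 genes of the list of receptors and EIN2 were higher in Ex2, against 16.2% of all named genes, and their median was 1.77. EIN2, a membrane protein that passes the signal on, read 1176 in Ex2 and 131 in Ex1 (8.91-fold). The receptor ETR1 read 1456 in Ex2 and 238 in Ex1, ETR6 633 in Ex2 and 113 in Ex1, ETR2 686 in Ex2 and 226 in Ex1, and ETR5 160 in Ex2 and 46.3 in Ex1. The 2 brightest receptors, LOC544279 (ETR3, the Never-ripe gene) and ETR4, differed least. They read 8857 in Ex2 and 4058 in Ex1, and 7508 in Ex2 and 3583 in Ex1, differences of 1.13 and 1.07 that turned to -0.090 and -0.15 with spike scaling.

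Of the 8 genes of soluble ethylene signalling proteins, 0 were 2-fold apart in either direction. Most named genes were like this, with 646 of 803 within 2-fold. Their median was 0.29, above that of all probe sets but turned negative with spike scaling. CTR1, the kinase that docks on the receptors and holds the pathway off, read 442 in Ex2 and 363 in Ex1. The transcription factor genes EIL1, EIL2, EIL3 and EIL4 differed by 0.17 to 0.51, with EIL3 at 1706 in Ex2 and 1196 in Ex1 the highest. ER5, dim on both arrays, was a tie. The lowest receptor gene was at 1.07 and the highest soluble one at 0.51, in small lists chosen with earlier results of these data known.

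Cell surface receptors were too dim for much to be read. Of 6, 2 were higher in Ex2 and 0 lower, at a median of 0.17 that turned with spike scaling. Eix1, a receptor-like protein that binds fungal xylanase, read 3452 in Ex2 and 664 in Ex1, and Ve2, a receptor-like protein of Verticillium resistance, read 463 in Ex2 and 89.5 in Ex1. The other 4 (Ve1, PRK1, PRK2 and PRK3, the last 3 pollen receptor kinases) read below 15 on both arrays.

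The list of endoplasmic reticulum membrane enzymes was mixed, and 3 of its 6 genes are doubtful. BI-1, a cell death suppressor of that membrane, read 5981 in Ex2 and 1391 in Ex1 (4.30-fold). HMGR, which makes mevalonate, read 280 in Ex2 and 91.5 in Ex1, and CYP85A1, a cytochrome P450 of brassinosteroid synthesis, 5675 in Ex2 and 2840 in Ex1. A second probe set of CYP85A1 read 5056 in Ex2 and 1856 in Ex1, past 2-fold. The doubtful ones were the plastid enzymes HPL and Fad7 and the coactivator ER24. They lay within 2-fold, and ER24 was lowest at 834 in Ex2 and 1479 in Ex1. The list had 2 genes higher, 0 lower and a median of 0.63 that turned with spike scaling.

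**Figure D4:**
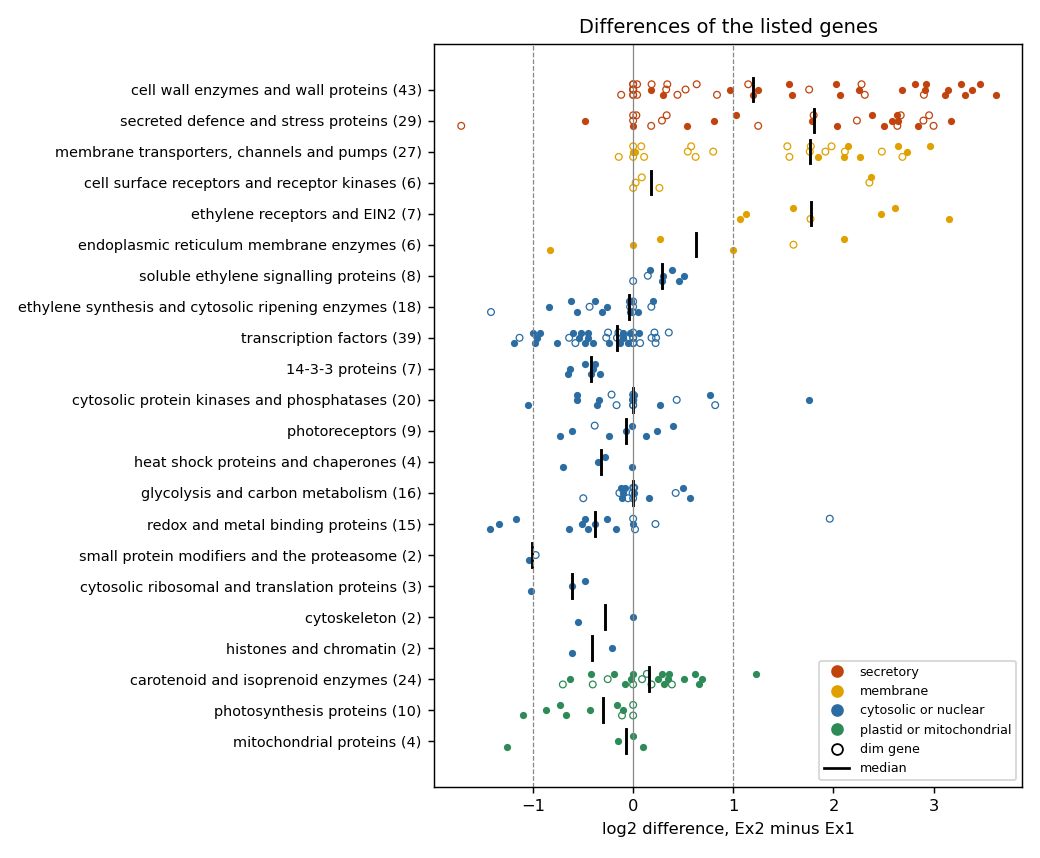
Log2 difference Ex2 minus Ex1 (horizontal) of each gene in the 22 lists, 1 row a list with the number of genes in brackets; filled points are bright genes, open points dim ones, the black bar is the median and the dashed lines mark 2-fold. The receptor and EIN2 row lies wholly at or right of 1.07, the cell wall and defence rows reach 3.62 and 3.17, and the 14-3-3 row lies wholly between -0.65 and -0.33.

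Among cytosolic and nuclear proteins, transcription factor genes sat slightly low in Ex2. Of 39, 0 were higher and 2 (5.13%) lower. Of all named genes 16.2% were higher and 3.36% lower, so the lower share was near that of named genes at large. Among all probe sets 6.71% were lower. The median of the list was -0.16, against -0.03 for all probe sets, and turned positive with RPL3 and RPL8 scaling. RIN, a regulator needed for ripening, read 5335 in Ex2 and 5856 in Ex1, and NOR, another, read 1367 in Ex2 and 2613 in Ex1. TDR4, a MADS-box factor of fruit, read 4375 in Ex2 and 6114 in Ex1. The lowest was DREB3, of the dehydration-responsive family, at 320 in Ex2 and 732 in Ex1, and the brightest, JERF1, differed by -0.11. The highest was TKN3, which was near the floor at 17.2 in Ex2 and 13.2 in Ex1.

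The 14-3-3 genes, whose products bind phosphorylated proteins in the cytosol, were tightly grouped. All 7 were bright, and all lay between -0.65 (TFT6) and -0.33 (tft10), with a median of -0.42; RPL3 and RPL8 scaling brought that median above 0. TFT7, the brightest, read 6222 in Ex2 and 8109 in Ex1. Bright genes of the secretory lists, by contrast, ran from -0.48, for the doubtful member TPx1, to 3.62.

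Genes of ethylene synthesis and cytosolic ripening enzymes were mostly equal or somewhat lower in Ex2. Of 18 genes of ethylene synthesis and related enzymes, 0 were higher and 1 lower, at a median of -0.04, a sign that either scaling sets. The ripening enzymes of ethylene synthesis ACS2 and ACS4 read 4623 in Ex2 and 4768 in Ex1, and 4898 in Ex2 and 4747 in Ex1. E8, a ripening dioxygenase-like gene, read 10418 in Ex2 and 10548 in Ex1, and ADH2, an alcohol dehydrogenase of aroma, 9805 in Ex2 and 10045 in Ex1. Others were lower within 2-fold, among them ADC at 1463 in Ex2 and 2624 in Ex1, ACS1A at 215 in Ex2 and 332 in Ex1, and SAM3 at 630.2 in Ex2 and 929.9 in Ex1, and of the 18 genes 13 were below 0. The lowest was the dim adc1, an arginine decarboxylase gene by its symbol, at 99.5 in Ex2 and 268 in Ex1, and the highest AAT, at 8994 in Ex2 and 7818 in Ex1. The other probe sets of adc1 lay within 2-fold, at -0.93, -0.74 and -0.52. Of the ripening genes with a secreted product described above, EXP1 and PE1 were more than 2-fold higher in Ex2, while PG2 was within 2-fold. With spike scaling PE1 fell just below 0, and EXP1 stayed above 0 but within 2-fold.

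Kinase genes were the one cytosolic list with a bright gene far on the Ex2 side. CDPK1, a calcium-dependent protein kinase, read 680 in Ex2 and 201 in Ex1 (3.38-fold), while MKK4 of the mitogen-activated cascade read 367 in Ex2 and 759 in Ex1. The other 18 genes of that list were within 2-fold, and its median was 0.00. The brightest was MKK2, at 1011 in Ex2 and 1302 in Ex1. Of the 16 genes of glycolysis and carbon metabolism, 0 were 2-fold apart and the median was 0.00. Sucrose phosphate synthase SPS was highest at 3655 in Ex2 and 2472 in Ex1, PPCK1 lowest at 55.5 in Ex2 and 78.8 in Ex1, and PGH1, an enolase, brightest at 4784 in Ex2 and 4274 in Ex1. Of 9 genes of light signalling, 0 were 2-fold apart. They ran from HY5, a transcription factor, at 715 in Ex2 and 1190 in Ex1 to DDB1, an adaptor of ubiquitin ligases, at 820.3 in Ex2 and 624 in Ex1.

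Redox and metal binding proteins held 3 of the 9 cytosolic and nuclear genes counted as lower in Ex2. Of 15 genes, 1 was higher and 3 lower, at a median of -0.38 that turned positive with RPL3 and RPL8 scaling. The metallothioneins, small metal-binding proteins, read 951 in Ex2 and 2409 in Ex1 for MTA and 96.5 in Ex2 and 262 in Ex1 for MT2, while LEMT1, the brightest of the list, read 9411 in Ex2 and 12833 in Ex1. The copper chaperone gene CCH read 743 in Ex2 and 1670 in Ex1. The only gene on the Ex2 side past 2-fold was Asc-1, at 101 in Ex2 and 25.3 in Ex1. It is a doubtful member, since the symbol is that of a resistance gene against Alternaria stem canker and not of an ascorbate enzyme.

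Genes of the translation machinery were lower in Ex2 on the deposited scale. RPL3 read 5748 in Ex2 and 8009 in Ex1, RPL8 3525 in Ex2 and 5399 in Ex1, and rpl38 1033 in Ex2 and 2103 in Ex1; scaling on RPL3 and RPL8 sets the first pair about 0 by construction. Small lists of the cytosol held few named genes. Histone H1 read 3553 in Ex2 and 5441 in Ex1 and actin ACT 5380 in Ex2 and 7896 in Ex1, against a tie at 313 for tubulin TUB. The modifier gene sumo read 131 in Ex2 and 269 in Ex1. The 4 heat shock and chaperone genes lay between -0.70 (HSP17.4) and -0.01 (HSC80), with vis1 at 3780 in Ex2 and 4838 in Ex1.

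Most genes of carotenoid and isoprenoid enzymes were within 2-fold. As with every list, this one was placed in its route as a whole, so single members may have products elsewhere in the cell. Of 24 carotenoid and isoprenoid genes, 1 was higher and 0 lower, at a median of 0.16 that turned with spike scaling. Psy1, the phytoene synthase that colours the fruit and the brightest of the list, read 13478 in Ex2 and 13657 in Ex1. The desaturases of the lycopene route were slightly higher in Ex2, with PDS at 1866 in Ex2 and 1466 in Ex1 and ZDS at 2692 in Ex2 and 2178 in Ex1. The one gene past 2-fold was loxC, a plastid lipoxygenase of flavour, at 4310 in Ex2 and 1847 in Ex1, and the lowest was VDE, at 82.2 in Ex2 and 134 in Ex1.

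Photosynthesis genes had lower differences than carotenoid genes, and 1 of the list, DFR, a tie near the floor, is doubtful. Of 10, 0 were above 0, 8 were below and 2 were ties, with a median of -0.30 that turned with RPL3 and RPL8 scaling. The lowest was LOC543978 (psaD), a photosystem I subunit, at 342 in Ex2 and 735 in Ex1. PSBR, a small photosystem II protein, read 5961 in Ex2 and 9513 in Ex1, and the plastocyanin gene PETE 1398 in Ex2 and 2317 in Ex1, while PSBO was at 3665 in Ex2 and 3944 in Ex1. Of 4 mitochondrial genes, TIM10, a small carrier of imported proteins, was 2-fold lower at 815 in Ex2 and 1949 in Ex1. The alternative oxidase AOX1a read 3510 in Ex2 and 3270 in Ex1.

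The ends of the range of bright named genes are given as a description. The brightness filter uses a mean that includes Ex2, so genes such as PMEU1, with 70.7 in Ex1, entered it largely through their Ex2 value, and the upper end supports nothing further. Of the 14 highest differences, the first 5 were the wall genes GP1, TBG2, Cel1, TBG5 and PMEU1, at 12.3-fold, 11.0-fold, 10.4-fold, 9.94-fold and 9.68-fold. The rest were LOC543878, EIN2, TBG4, TBG3, LHA1, GLUII, PME2.1, Cel3 and GluB, down to 7.17-fold. GLUII, on none of the lists, read 2563 in Ex2 and 335 in Ex1.

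The 14 lowest differences were smaller and of other kinds. They ran from -1.44 for LOC778319, at 189 in Ex2 and 516 in Ex1, to -1.05 for MKK4. MT2 and MTA, TPSI1 (a phosphate starvation gene, 203 in Ex2 and 534 in Ex1), TIM10, DREB3, CCH and LOC543978 were among them. The brightest in Ex1 was matriochka, at 2099 in Ex2 and 4633 in Ex1. None of the 14 is on a secretory or membrane list. Of the 461 bright named genes only 35 are on a secretory list and 21 on a membrane list, so this absence shows little.

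**Figure D5:**
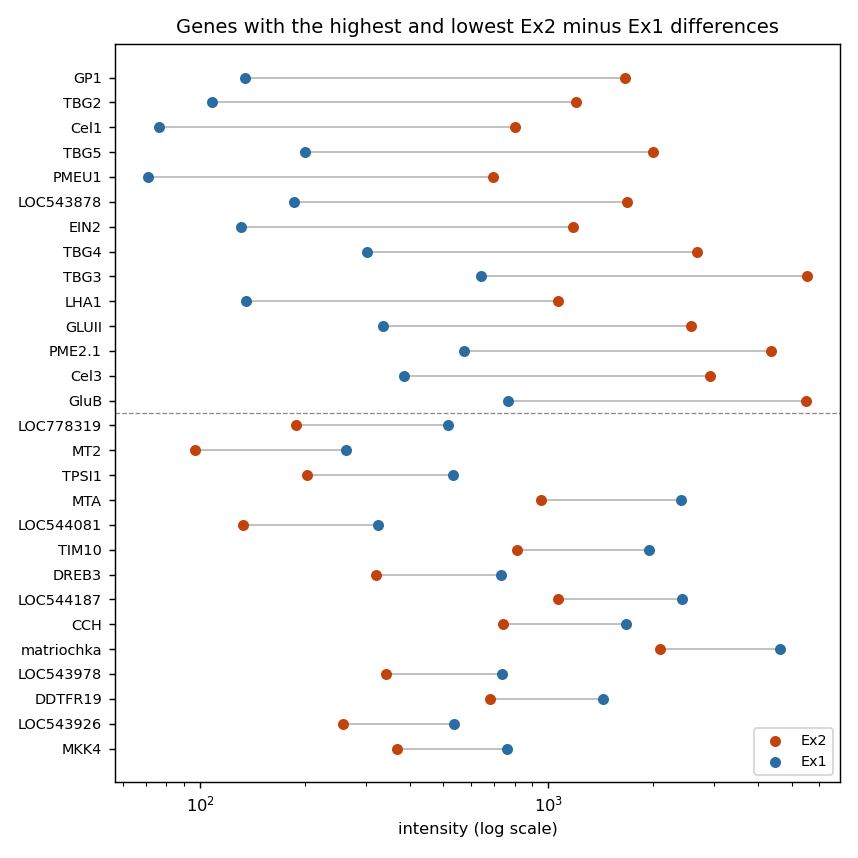
Intensity (horizontal, log scale) on the Ex2 array and the Ex1 array for the 14 highest and 14 lowest differences among bright named genes, highest difference at the top. The dashed line parts the ends; Ex2 is at 693 or above for the upper genes, whose Ex1 values lie between 70.7 and 768, and the gaps of the lower genes are all under 3-fold.

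The 2-fold line falls in a range where genes lie on both sides of it. The bright named genes just inside the upper line were NP24-I at 1.03, LOC543525 at 1.06 and ETR4 at 1.07, and those just outside were CYP85A1 at 0.998, XTH5 at 0.97 and SAR2 at 0.94. Inside the lower line were LOC544298 and LOC543632, both at -1.01, and INFA at -1.02. Outside it were FKBP12 at -0.999 and LOC606712 and ERF3, both at -0.995. These values are of the brightest probe set of a gene. Another probe set lay past the line for CYP85A1, at 1.45, and for FKBP12, at -1.43. With spike scaling all 6 genes at the upper line turned negative by these probe sets, LOC543525 to -0.16, while the other probe set of CYP85A1 stayed positive.

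Probe sets of the same transcript give a check within the arrays, though not between preparations. For the 24 named genes with several bright probe sets, the largest and smallest differences of a gene lay a median of 0.22 apart. For all 82 named genes with several probe sets the median gap was 0.35 and its 90th percentile 1.26, and of 12 such genes with a probe set 2-fold higher in Ex2, 1 had all of them 2-fold higher. Among 478 clusters of bright probe sets that share a number in the array's design, the median gap was 0.30. Of 49 such clusters with at least 1 probe set 2-fold higher in Ex2, 38 had all of them 2-fold higher and 45 had all above 0. Of 131 with at least 1 probe set 2-fold lower, 30 had all of them 2-fold lower and 127 had all below 0. In 0 of the 478 clusters did probe sets lie past 2-fold in opposite directions. Of 129 clusters in the array's other naming series, 1 did.

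Some genes had probe sets that differed. The defence gene PR1b1 had 1 probe set at 654 in Ex2 and 105 in Ex1, and another near the floor at 8.99 in Ex2 and 8.90 in Ex1. The sucrose transporter SUT4 had 1 at 271 in Ex2 and 68.0 in Ex1, and a second at 75.5 in Ex2 and 87.2 in Ex1. The metallothionein MT4 ran from 4963 in Ex2 and 9845 in Ex1 to 5554 in Ex2 and 4953 in Ex1 over its 4 probe sets, 3 of which carry design suffixes for shared sequence.

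The arrays were checked against the labelled tissue with marker genes. Of 6 markers of ripe pericarp, 4 were matched, and PG2, E8, EXP1 and Psy1 summed to 46927 in Ex2 and 39762 in Ex1, among the brightest signals on both arrays. Of 4 epidermis markers 3 were matched (TSW12, LE16 and ltpg1), with sums of 7698 in Ex2 and 2365 in Ex1. All 3 encode secreted proteins, so layer and protein route cannot be told apart with them. The 1 matched green tissue marker, CAB4, read 227 in Ex2 and 306 in Ex1. The 1 vascular marker, lin5, is also a wall invertase and read 1341 in Ex2 and 190 in Ex1. The 1 seed marker, MAN2, was near the floor at 13.98 in Ex2 and 10.8 in Ex1.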

How the data were processed

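The deposited series table gives 1 intensity per probe set, linear as its range shows, for 3 Affymetrix tomato arrays, of which 2 are compared. Per the submitters' processing notes the authors used GCOS 5.0 and also RMA; how these were combined, and their settings, are not given. The table held 0 columns of other samples. Differences were taken on log2(intensity + 1), a pseudocount of 1 that understates differences of dim genes, and counted from 2-fold. There is no replicate, so no model was fitted. Probe sets were named from the platform annotation, with symbols brought up to date by gene ID from RefSeq (SLM_r2.1), which held the ID of 885 of 909. Coordinates and sequences were not used here.

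Genes named are, among bright genes (mean log2 over the 3 arrays at or above 7.50, an intensity of 180.2), the 14 highest and 14 lowest differences. In each list they are the highest, lowest and brightest member, and once the 3 genes on each side of each 2-fold line. Other listed genes were named for their role after their values were seen. The planned classes by hydrophobic protein stretches could not be computed, as protein sequences were not used here; 4 routes of the gene lists took their place, added after the data were seen. Members and lists were chosen with earlier results of these data known. Of the list members, 10 matched through an ambiguous symbol or are known to go elsewhere, and are called doubtful. Scalings, thresholds, filters and the use of several probe sets were varied. The code was tested on simulated data. Tools were pandas 2.3.3 and NumPy 2.4.6 under Python 3.11.15, with figures by matplotlib 3.10.9 and, for the intervals used as tolerances, SciPy 1.17.1.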

Additional observations from a re-analysis of the deposited data

How the results depend on the processing

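Centring on medians, quantile normalization, a pseudocount of 16, averaging all probe sets of a gene, leaving out shared-sequence designs and leaving out exact ties kept each count within 1.5 times and each route's share within the 95% Wilson interval of its main value. Bright probe sets alone gave 730 higher, and 80.0% of secretory genes higher with 0 lower; that filter keeps genes partly through their Ex2 value. Scaling on RPL3 and RPL8 gave 37 probe sets lower, and for cytosolic and nuclear genes 5.52% higher and 0 lower, with 0 of the plastid and mitochondrial genes lower. Scaling on the spikes gave 449 higher and 7661 lower. Under it 38.9% of secretory genes were higher and 26.4% lower, 23.9% of membrane genes higher and 26.1% lower, 0 cytosolic and nuclear genes higher and 86.2% lower, and 0 plastid and mitochondrial genes higher and 71.1% lower. It turned NP24-I to -0.19, LOC544279 to -0.090, ETR4 to -0.15 and LOC543525 to -0.16. PE1, CYP85A1 (by its brightest probe set), XTH5 and LE16 also fell below 0. The constant shift itself does this. Centring within brightness deciles gave 220 lower, with 2.07% of cytosolic and 0 of plastid and mitochondrial genes lower. At 1.5-fold 1540 probe sets were higher, fewer than the lower ones; 2186 probe sets, 18.6% of cytosolic and 18.4% of plastid and mitochondrial genes were lower. At 3-fold 28 probe sets and 0 cytosolic genes were lower, and 0 plastid and mitochondrial genes were past it either way. Without the 10 doubtful members 0 secretory genes were lower and 65.9% of membrane genes were higher. The only lower secretory gene, TSI-1, is itself doubtful, so that 0 follows from leaving it out. The doubtful members named above lay near 0 or against the rest of their list, so their removal shows nothing further. Alternatives for hydropathy thresholds were not run, since protein sequences were not used here. No paired analysis was possible because each group has 1 array, and no array could be left out. The number of arrays limits the precision.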

Other observations

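Named genes on no list included further products of the secretory and membrane route, picked here after their values were seen, so they are examples and no count. The aquaporin gene Aqp2 read 1915 in Ex2 and 305 in Ex1, the transporter gene OPT1 1837 in Ex2 and 350.2 in Ex1, and Nramp2 279 in Ex2 and 70.3 in Ex1. ER-SHSP, a small heat shock protein of the endoplasmic reticulum, read 6273 in Ex2 and 1756 in Ex1, against the cytosolic HSP17.4 at 625 in Ex2 and 1014 in Ex1. The vacuolar processing enzyme VPE5 read 6042 in Ex2 and 1647 in Ex1, the arabinogalactan protein AGP-1 2413 in Ex2 and 885 in Ex1, and the auxin binding protein ERABP1 2454 in Ex2 and 979 in Ex1. Others of the kind were within 2-fold, such as the vacuolar invertase AI at 17521 in Ex2 and 12414 in Ex1, DAD1 at 2224 in Ex2 and 1827 in Ex1, and the dim amino acid transporter AAP3, a tie at 22.9.

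Genes of proteins that steer vesicles, also picked after their values were seen, were all within 2-fold. Rab1A read 1709 in Ex2 and 1751 in Ex1, RAB1B 774 in Ex2 and 1109 in Ex1, Rab1C 554 in Ex2 and 699 in Ex1, and Rab11a 296 in Ex2 and 445 in Ex1. The coatomer genes copz1 and copz2 differed by -0.62 each. SAR2, named for a small GTPase of vesicle budding, read 895 in Ex2 and 467 in Ex1, and tVPS41 273 in Ex2 and 213 in Ex1. The median difference of all probe sets was itself between -0.24 and -0.34 in the 5 brightest deciles. Genes outside the lists with the symbols eIF, RPL or RPS, of translation factors and ribosomal proteins, were all on the low side, from -0.50 for eIF-5A4 to -0.95 for eIF-5A2, with RPL37 at 2078 in Ex2 and 3922 in Ex1 and RPS25 at 2311 in Ex2 and 3770.0 in Ex1. Scaling on RPL3 and RPL8 adds 0.55, which puts eIF-5A4 and the Rab genes other than Rab11a above 0.

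Most of the largest differences have no name here. Of the 100 highest probe sets 20 are named, and of the 100 lowest 7, against 909 of all 10038 probe sets. The highest unnamed probe set read 1616 in Ex2 and 127 in Ex1, and the next 3403 in Ex2 and 298 in Ex1. The lowest read 264 in Ex2 and 1664 in Ex1, a wider gap than any named gene on that side, and the next 157 in Ex2 and 725 in Ex1.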
